A study of Mus musculus with 24 samples.

Results

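A set of 9 genes that mark or maintain blood stem and progenitor cells, Cd34, Procr, Ly6a, Meis1, Hoxa9, Hlf, Mecom, Erg and Mycn, were followed in the bone marrow of mice that carry the activating Shp2 E76K change. The 9 genes were chosen by symbol from the 24421 genes of the deposited count table, and all 9 were found there. Of these, 8 passed the filter on low counts, as did 12742 genes in all, and Procr did not. Cd34, Procr and Ly6a encode surface proteins, and the others encode transcription factors. The series' title names juvenile myelomonocytic leukaemia (JMML), a childhood blood cancer driven by RAS pathway signalling.

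All specimens were bone marrow mononuclear cells from primary Shp2 E76K mice, so the activated phosphatase is shared by every group and no wild-type marrow was analysed here. The groups were ACP196, which blocks the kinase BTK (specimens 4, 5 and 6), ACP319, which blocks the P110δ form of PI3K (specimens 7, 8 and 9), both inhibitors together (specimens 10, 11 and 12), and vehicle (specimens 1, 2 and 3). Treatment lasted 3 weeks. The labels list 24 samples that carry 12 specimen numbers, and the table has 1 count column per specimen. The labels used here do not give the age or sex of the mice, the driver of the Shp2 change, or whether every number stands for its own mouse. The p-values therefore reflect only the variation among these 12 specimens, part of which may be technical.

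Blood stem cells are rare cells of the marrow that divide seldom and can renew every blood lineage, and progenitors are their descendants with narrower fates. Stem cells are recognised by surface proteins such as Procr and Ly6a (Sca-1), while Cd34 marks much of the progenitor pool in mice. Their identity is held by a set of transcription factors, many of which are also known for driving leukaemia when misexpressed, as Meis1, Hoxa9, Mecom (Evi1), Erg and Mycn are. FOXO factors, which PI3K signalling through AKT keeps out of the nucleus, are known to maintain stem cell quiescence.

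With the PI3K inhibitor alone, Erg fell to 18.8 ± 4.75 CPM (counts scaled to library size), against 40.8 ± 8.75 CPM with vehicle (SD, n = 3 each). In the reported fit it was the only one of the 8 tested genes that passed an adjusted p of 0.05 in any comparison. Of all tested genes 10.7% passed for the PI3K inhibitor against vehicle. The Erg call was narrow (adjusted p = 0.0455, edgeR quasi-likelihood test) and was lost in 9 of 20 alternatives. No tested gene of the set passed with the BTK inhibitor or with the combination, beside 0% of all tested genes in both. Hlf and Meis1 were also lower in every PI3K inhibitor specimen than in any vehicle specimen, as were 26.3% of all tested genes, but missed the threshold. With an offset for gene length the Hlf difference with the PI3K inhibitor went from -0.81 to -0.18. Every BTK inhibitor specimen was below vehicle for Hlf too, beside 9.61% of tested genes. In the reported fit Cd34, Ly6a, Meis1, Hoxa9, Mecom and Mycn passed in no comparison, with differences from vehicle between -0.44 and 0.95 on the log2 scale. Under alternatives, Ly6a passed with the PI3K inhibitor (offset for gene length, without BTK inhibitor specimen 5). Hoxa9 passed for the combination against the BTK inhibitor (without BTK inhibitor specimen 6).

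The promoter windows of Erg and Hlf are shown because these genes had the lowest log2 differences of the set with the PI3K inhibitor. Windows run from 250 bases before to 50 bases after an annotated start and come from RefSeq on GRCm38.p6, the build that mm10 names, and 8 of the 9 genes matched, with 11 windows. Ly6a had no entry. Capitals mark, on either strand, TGACAG (read as CTGTCA on the other strand), a core bound by MEIS proteins, in the Erg window, and TGACGTCA, the cyclic AMP response element, in the Hlf window. The Erg window is chr16:95459299-95459598 on the minus strand, the one of its 3 windows with a match. The Hlf window is chr11:90390868-90391167 on the minus strand.
Erg: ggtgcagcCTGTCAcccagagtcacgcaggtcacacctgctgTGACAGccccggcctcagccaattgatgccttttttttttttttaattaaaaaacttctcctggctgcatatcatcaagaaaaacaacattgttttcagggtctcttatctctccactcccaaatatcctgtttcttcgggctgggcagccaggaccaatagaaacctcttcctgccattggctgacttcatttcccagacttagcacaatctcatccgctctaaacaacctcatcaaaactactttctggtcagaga
Hlf: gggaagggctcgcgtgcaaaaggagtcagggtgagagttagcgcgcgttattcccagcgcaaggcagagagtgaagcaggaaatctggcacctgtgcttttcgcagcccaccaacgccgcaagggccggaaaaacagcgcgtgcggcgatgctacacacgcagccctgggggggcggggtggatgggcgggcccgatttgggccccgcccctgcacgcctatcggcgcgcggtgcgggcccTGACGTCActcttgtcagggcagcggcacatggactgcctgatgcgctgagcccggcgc

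The Erg window holds 2 copies of TGACAG, 1 in each direction, and 2.33% of the 32851 promoter windows in the mouse table hold 2 or more. As this window was picked from 3 for its match, that share does not measure how rare the match is. At least 1 copy stands in 19.2% of windows, among them those of Mycn and of the downstream start of Mecom. TGACGTCA stands in 1.79% of windows and, within the set, in that of Hlf. The FOXO core TGTTTAC stands in 3.65% of all windows and in 0 of the 11 shown for the set. The ETS core CGGAAG, which ERG itself can bind, stands in 16.9% of all windows and in those of Procr, Meis1 and the downstream start of Mecom. The E-box CACGTG that MYC family proteins bind stands in 7.15% of windows and the HLF core TTACGTAA in 0.119%, and neither stands in a window of the set. These motifs overlap no other motif searched at the places shown. A match is a description and says nothing of binding, and the counts per gene do not separate the 3 starts of Erg.

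Library facts that touch these values are few. Total counts ran from 8993950 to 22154833 per specimen. BTK inhibitor specimen 5 had the lowest total and gave 15.4% of its counts to Rn45s, a ribosomal RNA gene, where the remaining libraries gave 0.203% to 0.773%. The title of BTK inhibitor specimen 6 carries a later date than the rest, and what was done then is not stated. The libraries also differed in how counts depended on gene length. The slope of a library's log2 CPM, taken as its deviation from the mean of all libraries, on log2 gene length was -0.098, -0.367 and -0.378 in the PI3K inhibitor specimens, against 0.149, 0.403 and 0.117 in the vehicle specimens, so that long genes read lower and short genes higher in every PI3K inhibitor library. BTK inhibitor specimens 4 and 5 also had negative slopes, -0.284 and -0.350, while specimen 6 had 0.177. Combination specimens 10, 11 and 12 had 0.093, 0.247 and 0.291. Hlf has 5665 bases of exon, Mecom 5504, Erg 3466, Meis1 3441 and Hoxa9 3229, against a median of 2835 over tested genes, while Cd34 has 2621, Mycn 2596, Procr 1504 and Ly6a 1002. Bulk counts cannot tell fewer cells of a type from less RNA per cell.

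Levels were compared between genes per length, as RPKM, which is CPM divided by exon length in kilobases. In vehicle marrow Ly6a had 14.4 ± 3.13 RPKM, Cd34 14.3 ± 2.73 and Erg 11.8 ± 2.52 (SD, n = 3), and these 3 levels lay within each other's spread. Each stood above 61.3% to 66.3% of tested genes. Meis1 followed with 1.24 ± 0.14 RPKM, Hlf with 1.07 ± 0.26 and Hoxa9 with 0.871 ± 0.119, where neighbours in the order differed by less than the SD of Hlf. Procr had 0.209 ± 0.043 RPKM, Mycn 0.156 ± 0.089 and Mecom 0.0952 ± 0.0337, and neighbours differed by less than the SD of Mycn. Ly6a, Cd34 and Erg were thus well detected, and Procr, Mycn and Mecom rested on few counts.

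**Figure D1:**
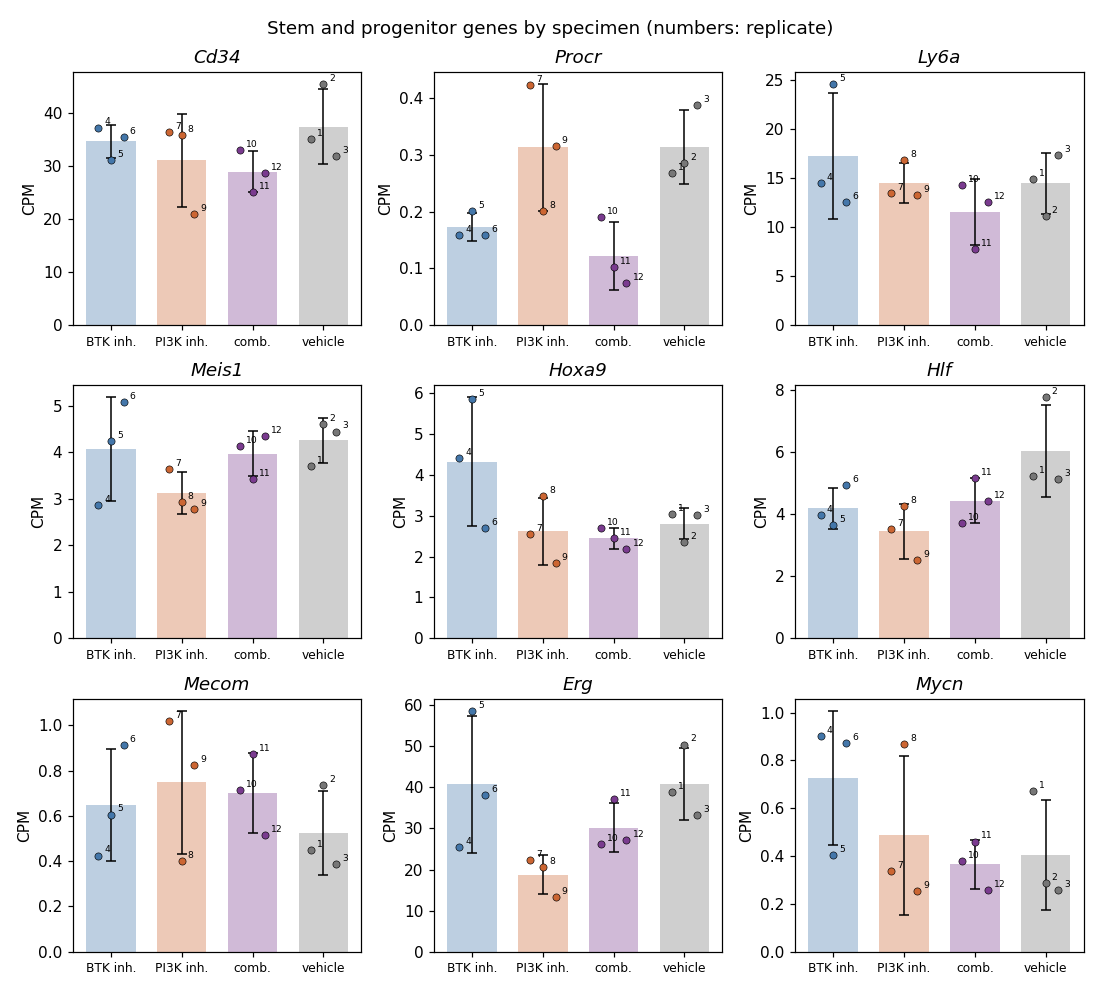
Level of each of the 9 genes in CPM (y axis, linear, from 0) in the BTK inhibitor, PI3K inhibitor, combination and vehicle groups, with points for specimens labelled by number, bars for means and error bars for SD (n = 3). Erg with the PI3K inhibitor sits between 13.4 and 22.3 CPM, below all vehicle specimens, which sit between 33.2 and 50.4 CPM.

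Among the surface proteins, Cd34, a sialomucin of progenitors that is also made by endothelial cells, stood at chr1:194938821-194961292 on the plus strand. It read 37.2, 31.1 and 35.5 CPM in BTK inhibitor specimens 4, 5 and 6, 36.4, 35.8 and 20.8 CPM in PI3K inhibitor specimens 7, 8 and 9, and 33.0, 25.1 and 28.7 CPM in combination specimens 10, 11 and 12, against 34.97, 45.5 and 31.8 CPM in vehicle specimens 1, 2 and 3. Every group overlapped vehicle, and the lowest value was that of PI3K inhibitor specimen 9. The log2 fold changes against vehicle were -0.11 ± 0.26 for the BTK inhibitor, -0.27 ± 0.26 for the PI3K inhibitor and -0.37 ± 0.26 for the combination (SE), with adjusted p of 0.807, 0.470 and 1.00 by edgeR's quasi-likelihood test. The antisense gene Gm16897 overlaps Cd34's exons and had 0 to 4 counts, and the library preparation does not mark strand, so its reads cannot be told from those of Cd34.

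Procr, the endothelial protein C receptor that marks long-term stem cells, stood at chr2:155751217-155755478 on the plus strand and was at the edge of detection. It had 3, 1 and 4 counts in the BTK inhibitor specimens, 10, 3 and 5 in the PI3K inhibitor specimens and 4, 2 and 2 in the combination specimens, against 6, 7 and 9 in the vehicle specimens. Summed over each group these were 8 counts with the BTK inhibitor (exact 95% Poisson interval 3.45 to 15.8), 18 with the PI3K inhibitor (10.7 to 28.5), 8 with the combination (3.45 to 15.8) and 22 with vehicle (13.8 to 33.3). The intervals of all groups overlap that of vehicle, and they cover counting error only, on counts not scaled to library size. In CPM, Procr read 0.159, 0.202 and 0.159 with the BTK inhibitor and 0.190, 0.103 and 0.074 with the combination. Every specimen of both groups was below the vehicle values of 0.268, 0.286 and 0.389 CPM. The PI3K inhibitor specimens, at 0.424, 0.200 and 0.317 CPM, overlapped vehicle. Without the filter on low counts, edgeR's quasi-likelihood test over 17848 genes gave log2 fold changes of -0.92 ± 0.69 for the BTK inhibitor, 0.01 ± 0.59 for the PI3K inhibitor and -1.36 ± 0.67 for the combination. The adjusted p values were 0.499, 1.00 and 1.00, so no difference was detectable at this depth.

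Ly6a encodes Sca-1, which marks stem cells and multipotent progenitors, is also found on some lymphocytes and endothelial cells, and is induced by interferon. It stood at chr15:74994877-74998031 on the minus strand. It read 14.6, 24.6 and 12.6 CPM in the BTK inhibitor specimens, 13.5, 16.8 and 13.2 CPM in the PI3K inhibitor specimens and 14.3, 7.79 and 12.5 CPM in the combination specimens, against 14.9, 11.1 and 17.3 CPM in the vehicle specimens. The highest value was that of BTK inhibitor specimen 5 and the lowest that of combination specimen 11, and every group overlapped vehicle. The log2 fold changes were 0.24 ± 0.32, 0.00 ± 0.32 and -0.32 ± 0.32 for the BTK inhibitor, the PI3K inhibitor and the combination, with adjusted p of 0.650, 0.992 and 1.00. Ly6a is the shortest gene of the set, and with an offset for gene length in each library its difference with the PI3K inhibitor became -0.80 ± 0.25 with an adjusted p of 0.107. The same offset without BTK inhibitor specimen 5 gave -0.79 and an adjusted p of 0.0328.

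Among the transcription factors, Erg is an ETS family protein that stem cells need for self-renewal and that endothelial cells also make. Its gene stood at chr16:95359169-95586593 on the minus strand. It read 25.4, 58.6 and 38.2 CPM in BTK inhibitor specimens 4, 5 and 6, 22.3, 20.6 and 13.4 CPM in PI3K inhibitor specimens 7, 8 and 9, and 26.3, 37.1 and 27.1 CPM in combination specimens 10, 11 and 12, against 38.9, 50.4 and 33.2 CPM in vehicle specimens 1, 2 and 3. All 3 PI3K inhibitor specimens were below every other specimen of the series. The BTK inhibitor group spread around the vehicle values, and the combination overlapped vehicle through specimen 11.

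With the PI3K inhibitor Erg fell to 0.460 of the vehicle level, a log2 fold change of -1.12 ± 0.32 with an adjusted p of 0.0455 (edgeR quasi-likelihood, Benjamini-Hochberg). Across all tested genes 10.7% passed the same threshold in this comparison, and 1 of the 8 genes of the set did. The direction and size held in all 20 alternatives tried, between -1.26 and -0.91, while 9 of them lost the call, and under each of those no gene of the whole table passed. With the gene length offset the difference was -0.91 with an adjusted p of 0.153, and with that offset and without BTK inhibitor specimen 5 it was -0.91 with an adjusted p of 0.0181. Leaving out PI3K inhibitor specimen 9 gave -0.93 with an adjusted p of 0.213, and leaving out vehicle specimen 2 gave -0.94 with an adjusted p of 0.155. The part of gene length bias in the difference was not tested beyond the offset.

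**Figure D2:**
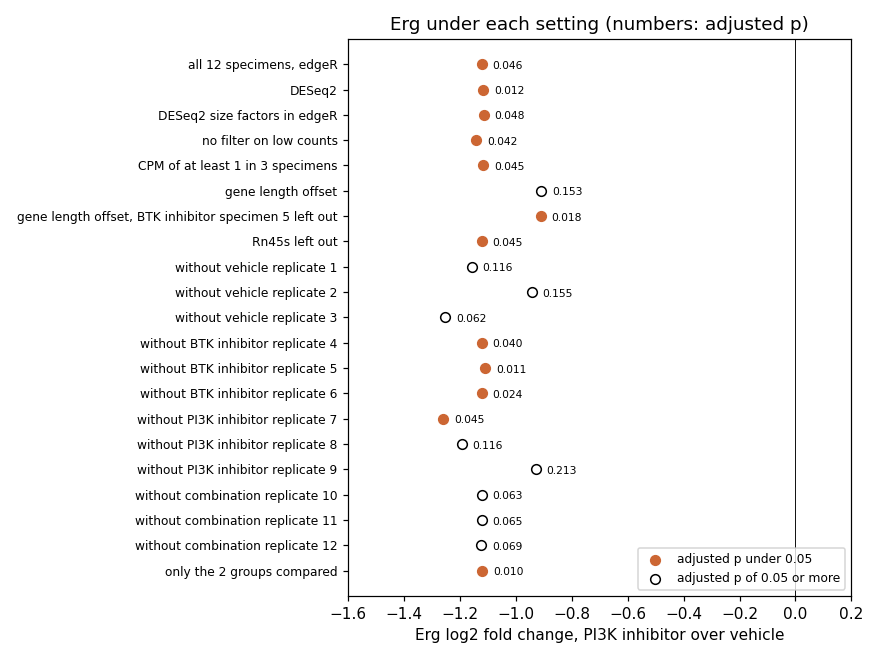
Log2 fold change of Erg, PI3K inhibitor against vehicle (x axis), under the reported setting and each alternative (y axis), with the adjusted p printed beside each point. All points lie between -1.26 and -0.91, and the adjusted p lies between 0.00959 and 0.213.

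Erg did not differ past the threshold in the other comparisons. The BTK inhibitor against vehicle gave -0.01 ± 0.32 (adjusted p = 0.983), and the combination against vehicle gave -0.44 ± 0.32 (adjusted p = 1.00). The combination against the PI3K inhibitor gave 0.68 ± 0.32 (adjusted p = 0.178), with every combination specimen above every PI3K inhibitor specimen. The PI3K inhibitor against the BTK inhibitor gave -1.11 ± 0.33 (adjusted p = 0.745), a comparison in which no gene of the table passed. The interaction, which asks whether the combination departs from the sum of both single differences, gave 0.70 ± 0.45 (adjusted p = 0.253), so the Erg level with both inhibitors was not shown to differ from that sum. The test for any difference among the 4 groups gave an adjusted p of 0.104.

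Erg is also made by endothelial cells, so markers of that lineage were set beside it. All 10 endothelial markers were detected in every group, none at 0, and their summed level ran from 36.9 to 51.3 CPM with the PI3K inhibitor, against 50.4 to 68.4 CPM with vehicle. Of the 8 endothelial markers tested, 0 passed in either direction, with a median log2 difference of -0.43. Of these, 2 were positive, Emcn (1.65 ± 0.74, at under 1 CPM) and Plvap (0.36 ± 0.39). Their part in the Erg difference was not tested.

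Hlf, a PAR bZIP factor that keeps stem cells quiescent and is restricted to the most immature cells, stood at chr11:90336535-90390917 on the minus strand. It read 3.98, 3.64 and 4.93 CPM in the BTK inhibitor specimens, 3.52, 4.28 and 2.53 CPM in the PI3K inhibitor specimens and 3.70, 5.17 and 4.43 CPM in the combination specimens, against 5.23, 7.76 and 5.14 CPM in the vehicle specimens. All specimens of both single inhibitor groups were below all vehicle specimens, and the combination overlapped them through specimen 11. The PI3K inhibitor gave -0.81 ± 0.30 (adjusted p = 0.0816), the BTK inhibitor -0.52 ± 0.30 (adjusted p = 0.295) and the combination -0.45 ± 0.30 (adjusted p = 1.00). With the length offset, the PI3K inhibitor difference of Hlf, the longest gene of the set, was -0.18 (adjusted p = 0.710) and the BTK inhibitor difference -0.07. Its interaction was 0.88 ± 0.43 with an adjusted p of 0.133, the lowest of the set.

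Meis1, a TALE homeodomain partner of Hox proteins, stood at chr11:18880428-19018969 on the minus strand. It read 2.87, 4.24 and 5.09 CPM in the BTK inhibitor specimens, 3.65, 2.94 and 2.79 CPM in the PI3K inhibitor specimens and 4.13, 3.43 and 4.36 CPM in the combination specimens, against 3.71, 4.62 and 4.45 CPM in the vehicle specimens. The PI3K inhibitor specimens all lay below the vehicle specimens, by a narrow margin between 3.65 and 3.71 CPM. The log2 difference was -0.44 ± 0.29 with the PI3K inhibitor (adjusted p = 0.290), -0.07 ± 0.29 with the BTK inhibitor (adjusted p = 0.897) and -0.10 ± 0.29 with the combination (adjusted p = 1.00).

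Hoxa9, a homeodomain factor of progenitors that pairs with Meis1 and other TALE proteins, stood at chr6:52223097-52227370 on the minus strand. It read 4.41, 5.86 and 2.70 CPM in the BTK inhibitor specimens, 2.55, 3.47 and 1.84 CPM in the PI3K inhibitor specimens and 2.71, 2.46 and 2.18 CPM in the combination specimens, against 3.04, 2.37 and 3.02 CPM in the vehicle specimens. BTK inhibitor specimens 4 and 5 were above all other specimens, while specimen 6 lay within the vehicle range. The BTK inhibitor against vehicle gave 0.58 ± 0.35 (adjusted p = 0.304), and 0.33 (adjusted p = 0.644) without specimen 5. The PI3K inhibitor gave -0.10 ± 0.35 (adjusted p = 0.847) and the combination -0.20 ± 0.35 (adjusted p = 1.00). The combination against the BTK inhibitor gave -0.78 ± 0.35 (adjusted p = 0.239).

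Mecom, the locus of the zinc finger factor Evi1 that long-term stem cells require, stood at chr3:29951296-30509487 on the minus strand. It had 8, 3 and 23 counts in the BTK inhibitor specimens, 24, 6 and 13 in the PI3K inhibitor specimens and 15, 17 and 14 in the combination specimens, against 10, 18 and 9 in the vehicle specimens. Means were 0.648 ± 0.247 CPM with the BTK inhibitor, 0.748 ± 0.316 with the PI3K inhibitor and 0.700 ± 0.177 in the combination group, against 0.524 ± 0.185 with vehicle. Every group overlapped vehicle. The log2 differences were 0.34 ± 0.50, 0.53 ± 0.48 and 0.40 ± 0.48 for the BTK inhibitor, the PI3K inhibitor and the combination, with adjusted p of 0.690, 0.448 and 1.00.

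Mycn, a MYC family factor active in immature cells, stood at chr12:12936093-12941836 on the minus strand. It had 17, 2 and 22 counts in the BTK inhibitor specimens, 8, 13 and 4 in the PI3K inhibitor specimens and 8, 9 and 7 in the combination specimens, against 15, 7 and 6 in the vehicle specimens. Means were 0.727 ± 0.280 CPM in the BTK inhibitor group, 0.487 ± 0.333 CPM in the PI3K inhibitor group and 0.366 ± 0.102 CPM in the combination group, against 0.405 ± 0.230 CPM with vehicle. Vehicle specimen 1 stood apart from the other two vehicle specimens, at 0.671 CPM against 0.286 and 0.259 CPM. The log2 differences were 0.95 ± 0.56 with the BTK inhibitor (adjusted p = 0.298), 0.24 ± 0.58 with the PI3K inhibitor (adjusted p = 0.789) and -0.15 ± 0.58 with the combination (adjusted p = 1.00).

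**Figure D3:**
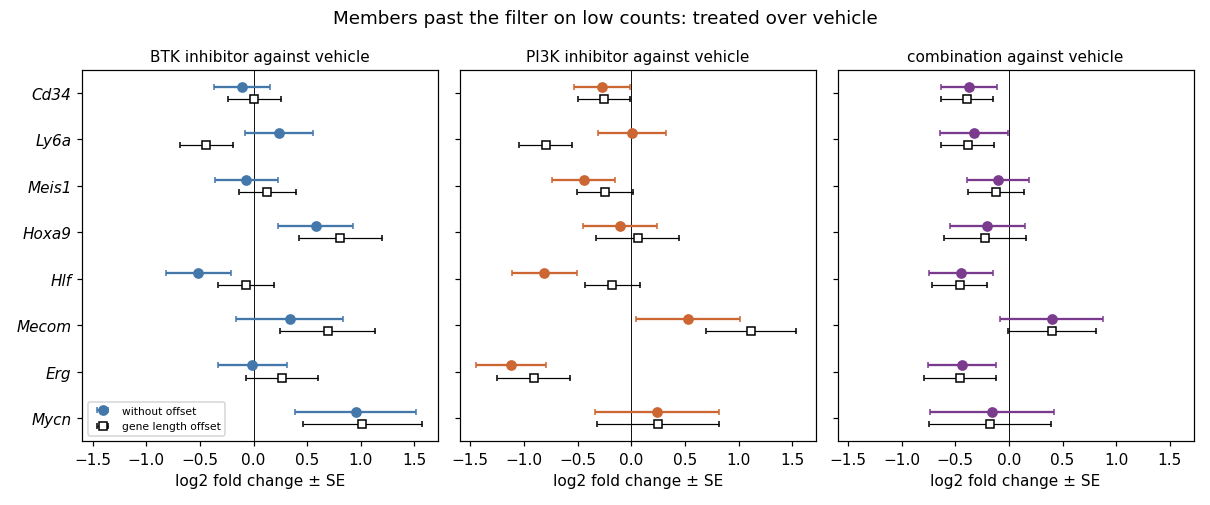
Log2 fold change against vehicle of the 8 tested genes (x axis) with SE, for the BTK inhibitor, the PI3K inhibitor and the combination, without (filled) and with (open squares) the gene length offset. Erg with the PI3K inhibitor is at -1.12 without the offset and -0.91 with it, while Hlf is at -0.81 and -0.18 and Ly6a at 0.00 and -0.80.

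Read as a set, the median log2 difference of the tested genes was 0.11 with the BTK inhibitor (all tested genes -0.02), with 4 of 8 positive. It was -0.19 with the PI3K inhibitor (all genes -0.01), with 5 of 8 negative, and -0.26 with the combination (all genes 0.00), with 7 of 8 negative. The SE of single genes ran from 0.26 to 0.58, and all 3 comparisons share the vehicle specimens.

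Of the set, 0 of 8 passed for the BTK inhibitor against vehicle and 0 of 8 for the combination against vehicle, beside 0% of all tested genes in both. The whole table had 3153 genes at an unadjusted p under 0.05 for the BTK inhibitor and 626 for the combination, none of them in the set, and DESeq2 called 1085 and 22 genes. Without BTK inhibitor specimen 6 the BTK inhibitor comparison passed for 3809 genes, with 0 of the 8 among them. In the PI3K inhibitor comparison 4543 genes were at an unadjusted p under 0.05, and 2 of the 8, Erg and Hlf, were among them. In the 3 comparisons between inhibitor groups and in the test for any difference 0% of tested genes and 0 of 8 passed. At an unadjusted p under 0.05 the table then had 2569 genes for the combination against the BTK inhibitor, 3660 for the combination against the PI3K inhibitor, 791 for the PI3K inhibitor against the BTK inhibitor and 3903 for any difference. Of the set, Hoxa9 was among these for the combination against the BTK inhibitor, and Erg for the PI3K inhibitor against the BTK inhibitor and for any difference. DESeq2 called 577, 1226, 0 and 3140 genes in these. Leaving out 1 BTK inhibitor library changed several of these counts. Without specimen 6, 3470 genes passed for the combination against the BTK inhibitor (Hoxa9 of the set), 1798 for the combination against the PI3K inhibitor and 4115 for any difference (Erg of the set). Without specimen 5, 2499 passed for the combination against the PI3K inhibitor and 1387 for any difference, with none of the set. The interaction passed for 27.6% of tested genes and for 0 of the 8. That share rested on single libraries too, since 3522 genes passed with all of them, against 1 without vehicle specimen 2, PI3K inhibitor specimen 8 or PI3K inhibitor specimen 9 and 0 without combination specimen 11 or 12. With the gene length offset 1 gene passed.

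By position alone, 3 of the 8 genes (Erg, Hlf and Meis1) had all PI3K inhibitor specimens below all vehicle specimens, beside 26.3% of all tested genes. With the BTK inhibitor it was 1 of 8 (Hlf) beside 9.61%, and with the combination 0 of 8 beside 9.47%. Procr, which missed the filter, is left out of these counts and shares. In a set of 8 these counts are close to the shares of the whole table and are no result about the set.

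Within groups, Meis1, Cd34 and Hlf varied least, with pooled SDs of 0.26, 0.29 and 0.30 on the log2 CPM scale, against a median of 0.44 over tested genes. Hoxa9 had 0.37, Ly6a 0.39, Erg 0.41 and Mecom 0.47, and Mycn varied most with 0.59. Over the 12 specimens the most alike pairs were Ly6a and Hoxa9 (Pearson r = 0.71), Meis1 and Erg (0.68) and Hlf and Erg (0.68). The least alike were Ly6a and Mecom (-0.50) and Hoxa9 and Mecom (-0.46). These r values describe the 12 specimens, which share library effects such as the length slope, and carry no p.

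The genes whose log2 CPM ran closest to each gene of the set, among 9590 candidates over the 12 specimens, were found as a description. For Erg these were Cdk19 (r = 0.98) and Klf4 (0.97), and for Hlf Phf19 (0.98) and Pde2a (0.97). For Cd34 they were Ly6e (0.93) and Manba (0.93), and for Ly6a H2-DMb1 (0.92) and Cd300a (0.89). For Meis1 they were Slc12a2 (0.94) and Hdac9 (0.94), and for Hoxa9 Bmx (0.97) and Trp53i13 (0.94). For Mecom they were Vmac (0.89) and Nusap1 (0.78), and for Mycn Cers5 (0.87) and Trim45 (0.82). With so many candidates and 12 points, values of this size are a description.

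Other genes of the stem cell programme were read from the same fit. Of 17 tested surface and receptor genes, 0 passed in any comparison with vehicle. The lowest p belonged to Cd93, a receptor of early progenitors and endothelium, which had 61.6, 46.2 and 33.8 CPM with the PI3K inhibitor, against 85.7, 134.7 and 97.8 CPM with vehicle (log2 -1.17 ± 0.35, adjusted p = 0.0504). Cd93 thus missed the threshold although the groups did not overlap. Esam, an adhesion protein of stem cells, gave 1.41 ± 0.48 (adjusted p = 0.0660) at under 1 CPM, and Prom1 gave -0.49 ± 0.28 (adjusted p = 0.231). The median of this list was -0.10 with the BTK inhibitor, -0.37 with the PI3K inhibitor and 0.15 in the combination comparison.

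Of 21 tested stem cell transcription factors and regulators outside the set, 1 rose and 1 fell with the PI3K inhibitor, and 0 passed with the BTK inhibitor or the combination. Runx1, the core-binding factor that starts definitive blood formation, had 36.7, 28.6 and 21.4 CPM with the PI3K inhibitor, against 65.6, 90.4 and 51.8 CPM with vehicle (log2 -1.26 ± 0.29, adjusted p = 0.0399). Lmo2, a bridging protein of the stem cell and erythroid factor complex, had 205.9, 255.6 and 319.8 CPM with the PI3K inhibitor, against 112.7, 144.7 and 153.9 CPM with vehicle (0.93 ± 0.24, adjusted p = 0.0407). Every BTK inhibitor and combination specimen was above vehicle for Lmo2 too (0.35 ± 0.24 and 0.50 ± 0.24, neither passing). Erg, Runx1 and Lmo2 belong to the factors known to bind together in blood progenitors, and their differences had unlike signs. Trib2, a pseudokinase, gave 0.66 ± 0.30 with an adjusted p of 0.137.

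Among other Hox A cluster and TALE genes, 7 of 16 were tested, and 1 rose and 1 fell with the PI3K inhibitor. Pknox1, a TALE factor, had 18.1, 16.8 and 16.4 CPM with the PI3K inhibitor, against 28.8, 38.4 and 31.1 CPM with vehicle, and the groups did not overlap. Its difference was -0.94 ± 0.28 with an adjusted p of 0.0479. Pbx4 rose to 2.88 ± 0.48 CPM with the PI3K inhibitor, against 1.22 ± 0.37 CPM with vehicle (adjusted p = 0.0436). Every BTK inhibitor and combination specimen was above vehicle for Pbx4 too (1.126 ± 0.349 and 1.085 ± 0.340, neither passing). Hoxa5, a neighbour of Hoxa9 in the cluster, gave 0.55 ± 0.73 with an adjusted p of 0.600, at under 1 CPM in both groups. The median of this list was 0.47 with the BTK inhibitor, -0.04 with the PI3K inhibitor and 0.26 in the combination comparison.

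In the MYC network around Mycn, 1 of 9 tested genes, Mnt, fell with the PI3K inhibitor. Mnt, a MAX partner that opposes MYC, had 16.7 ± 3.33 CPM with the PI3K inhibitor, against 34.7 ± 8.55 CPM with vehicle (-1.06 ± 0.27, adjusted p = 0.0407). Mga gave -1.28 ± 0.38 (adjusted p = 0.05002) and Mxd1 -0.80 ± 0.30 (adjusted p = 0.0843), and neither passed. In the Ly6 family around Ly6a, 1 of 8 tested genes, Ly6d, rose with the PI3K inhibitor. Ly6d, a marker of lymphoid commitment, had 46.6, 92.2 and 80.7 CPM with the PI3K inhibitor, against 26.7, 30.7 and 27.7 CPM with vehicle (adjusted p = 0.0407). Every BTK inhibitor and combination specimen was above vehicle for Ly6d too (1.68 ± 0.35 and 0.55 ± 0.34, neither passing). Ly6i gave -0.90 ± 0.36 (adjusted p = 0.0989) and Ly6f -0.03 ± 0.60 (adjusted p = 0.978) with the PI3K inhibitor. With the combination Ly6i gave -1.54 ± 0.37 without passing, and every combination specimen was below vehicle.

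**Figure D4:**
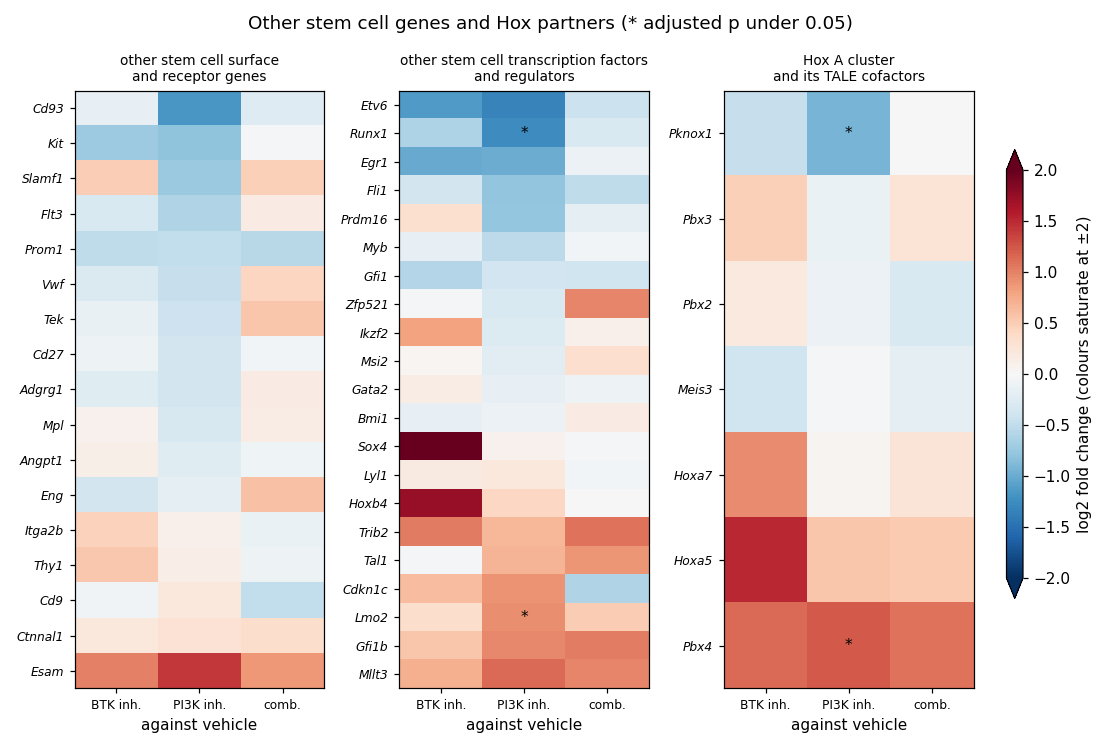
Log2 fold change against vehicle (colour, held at 2 in both directions) of other stem cell genes (y axis) for the BTK inhibitor, the PI3K inhibitor and the combination (x axis), with a star where the adjusted p is under 0.05. Stars stand in the PI3K inhibitor column, among them Runx1, Lmo2 and Pknox1.

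Markers of more mature progenitors gave the surroundings of the set. Of 7 tested megakaryocyte-erythroid progenitor markers 3 rose with the PI3K inhibitor, namely the erythroid factor Gata1 (1.69 ± 0.43, adjusted p = 0.0407), the erythropoietin receptor Epor (1.43 ± 0.39, adjusted p = 0.0423) and the carbonic anhydrase gene Car2 (1.47 ± 0.40, adjusted p = 0.0423). Gata1 was also above vehicle in every BTK inhibitor and combination specimen, without passing. The summed level of all 8 listed markers ran from 2457 to 4478 CPM with the PI3K inhibitor and from 2757 to 2804 CPM in the combination, against 644 to 1730 CPM with vehicle, with Hba-a1 at 0 in every group. The summed level was above vehicle in every specimen of both groups. Single markers differed, since Car1 and Zfpm1 overlapped vehicle in both groups and Zfpm1 gave -0.23 ± 0.51 with the PI3K inhibitor. Of 8 granulocyte-monocyte markers and 8 lymphoid progenitor markers 0 passed. The granulocyte-monocyte sum ran from 4717 to 8693 CPM with the PI3K inhibitor, against 5392 to 8774 CPM with vehicle. The lymphoid progenitor sum ran from 116 to 302 CPM with the BTK inhibitor and from 108 to 125 CPM with the PI3K inhibitor, against 78.0 to 183 CPM with vehicle. The part of a shift in cell types in the Erg and Hlf values was not tested.

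Of the lists for other cells, 0 of 7 mast cell and basophil markers and 0 of 9 T cell markers passed. Of 7 megakaryocyte markers, the platelet glycoprotein gene Gp9 rose with the PI3K inhibitor (1.07 ± 0.24, adjusted p = 0.0396), and of 7 stroma markers the adipocyte gene Adipoq did (1.57 ± 0.47, adjusted p = 0.0490). Gp9 was above vehicle in every BTK inhibitor and combination specimen too, without passing. Adipoq was near the floor, at 0.72 to 1.14 CPM with the PI3K inhibitor, against 0.29 to 0.40 CPM with vehicle. The stroma sum ran from 26.1 to 48.8 CPM with the PI3K inhibitor and, in the combination, from 50.8 to 177 CPM, against 13.3 to 22.7 CPM with vehicle. Most of the combination sum was collagen, with means of 47.0 CPM for Col1a1 and 36.2 CPM for Col1a2, against 4.82 and 3.06 CPM with vehicle. Their log2 differences with the combination were 3.28 ± 0.67 and 3.56 ± 0.68, neither passing, and every combination specimen was above vehicle. Interferon-stimulated genes were scored because Ly6a is one of the genes that interferon induces. Of 15 tested, 3 fell with the PI3K inhibitor, namely Oasl2 (-1.69 ± 0.37, adjusted p = 0.0394), Oas3 (-1.58 ± 0.35, adjusted p = 0.0394) and Irf7 (-0.97 ± 0.28), which the rule for named genes leaves out and which was chosen after its values were seen. Zbp1 gave -0.81 ± 0.30 (adjusted p = 0.0807). Single genes differed, since 2 of the 15 were positive with the PI3K inhibitor, without passing. These were Isg15 (0.91 ± 0.55) and Rsad2 (0.11 ± 0.45), also outside that rule. The list's summed level ran from 602 to 767 CPM with the BTK inhibitor, 532 to 762 CPM with the PI3K inhibitor and 565 to 599 CPM with the combination, against 933 to 1245 CPM with vehicle. The summed interferon-stimulated level was below vehicle in every inhibitor specimen. Ly6a overlapped vehicle in each group in CPM. With the gene length offset Ly6a gave -0.80 ± 0.25 with the PI3K inhibitor (adjusted p = 0.107, edgeR quasi-likelihood test). Any link between Ly6a and these genes was not tested.

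Over all 14 of these lists, 14 of 138 tested genes (10.1%) passed with the PI3K inhibitor, 8 higher and 6 lower, beside 10.7% of all tested genes. In the BTK inhibitor and combination comparisons 0 of 138 passed. For the PI3K inhibitor 0 of the 138 passed with the gene length offset, or when any one of vehicle specimens 1, 2 and 3, PI3K inhibitor specimens 8 and 9 and combination specimens 10, 11 and 12 was left out, which holds for every call named from these lists.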

How the data were processed

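Marrow mononuclear cell RNA was made into cDNA with a SMART-Seq v4 low-input kit and into libraries with Nextera XT, per the labels' protocols, a preparation that does not mark strand. The submitters' processing notes name STAR, featureCounts and the mm10 build. No source used here gives versions or the strand setting. The authors deposited raw counts by gene beside exon coordinates and lengths, with 1 column for each of the 12 specimens. Within every group, pairs of specimens varied beyond counting noise, with a chi-square per degree of freedom of 21.7 to 670.5.

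Genes were filtered with filterByExpr (smallest count 10) and tested with edgeR 4.0.16 (limma 3.58.1, R 4.3.3), with TMM scaling, 1 model of 12 specimens in 4 groups, robust quasi-likelihood F tests and Benjamini-Hochberg adjustment over 12742 genes at 0.05. CPM used TMM-scaled totals of tested genes, and log2 CPM for correlations used a prior count of 2. Alternatives were DESeq2 1.42.0, DESeq2 size factors, other count filters, a length offset (spline of log2 CPM on log2 length, 5 degrees of freedom), Rn45s left out, each specimen left out, and only the 2 groups compared. Figures were drawn with matplotlib. The set, the other lists and the tests were chosen with earlier results of these data known. All members of the set were named, with up to 3 genes per other list by smallest p over the 3 comparisons with vehicle, each list gene that passed in number, and the 2 genes most alike to each member. For 1 gene of the other lists, results are not reported here and counts leave it out. Promoter windows were matched by symbol, and motifs were searched on both strands.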

Additional observations from a re-analysis of the deposited data

How the results depend on the processing

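Each of the 8 comparisons was repeated under up to 20 alternatives. With the PI3K inhibitor against vehicle 1 of the 8 genes passed, against 2 by DESeq2 (Erg and Hlf), 0 with the gene length offset, 2 with that offset and without BTK inhibitor specimen 5 (Erg and Ly6a), and 0 to 2 when single specimens were left out. It was 0 without any one of vehicle specimens 1, 2 and 3, PI3K inhibitor specimens 8 and 9 and combination specimens 10, 11 and 12, and 2 (Erg and Hlf) without BTK inhibitor specimen 5. For the combination against the BTK inhibitor the count was 0, and 0 to 1 with single specimens left out (Hoxa9, without BTK inhibitor specimen 6). For the combination against the PI3K inhibitor it was 0, and 1 (Erg) when only those groups were fitted. For any difference it was 0, 1 by DESeq2 (Erg), and 0 to 1 with single specimens left out (Erg, without BTK inhibitor specimen 6). The causes were not tested.

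Small differences from vehicle changed sign. With the BTK inhibitor, the offset gave 0.0070 for Cd34, -0.44 for Ly6a, 0.13 for Meis1 and 0.26 for Erg, and the offset without specimen 5 gave -0.51 for Ly6a. Erg gave 0.0199 by DESeq2, 0.0204 with its size factors, 0.00093 with the CPM filter and 0.00043 with only those groups. Leaving out single specimens gave ranges of -0.22 to 0.053 for Cd34, -0.093 to 0.42 for Ly6a, -0.31 to 0.14 for Meis1, -0.13 to 0.66 for Mecom and -0.36 to 0.23 for Erg. With the PI3K inhibitor, Ly6a gave -0.016 without a filter, -0.80 with the offset and -0.79 with the offset and without specimen 5, and Hoxa9 gave 0.059 and 0.056 with the same 2 offsets. Ranges there were -0.16 to 0.15 for Ly6a, -0.35 to 0.093 for Hoxa9 and -0.42 to 0.79 for Mycn, and for Mycn with the combination -0.39 to 0.40. Hlf with the PI3K inhibitor passed by DESeq2 (-0.81, adjusted p = 0.0402) and without BTK inhibitor specimen 5 (-0.80, adjusted p = 0.0425). Of the other lists' 138 genes, 14 passed with the PI3K inhibitor, against 28 by DESeq2, 0 with the offset, 24 with the offset and without specimen 5, 38 without specimen 5, 32 without specimen 6, 36 with only those groups and 0 without any one of the same 8 specimens as above. With the BTK inhibitor 0 of the 138 passed, against 13 by DESeq2 and 31 without specimen 6, and with the combination 0, against 6 by DESeq2. Of all tested genes 1359 passed with the PI3K inhibitor, against 3221 by DESeq2.

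No paired analysis was made because the labels state no pairing of specimens across groups. Depth limits Procr, Mecom and Mycn, at 24 or fewer counts in every specimen.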
